A study of Homo sapiens with 6 samples.

Results

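The MAGE (melanoma antigen) genes were followed across PHF8-knockout and control 786-O cells. Members were taken by name: each counted symbol that begins with MAGEA, MAGEB, MAGEC, MAGED, MAGEE, MAGEF, MAGEH or MAGEL, together with NDN and NSMCE3, without pseudogene and antisense names. This gave 38 of the 54261 symbols in the count table. Of these, 27 belong to the tissue-restricted A, B and C groups, counting the readthrough symbol MAGEA10-MAGEA5, and 11 to the broadly expressed groups. MAGEA5 is kept as a member by its symbol, although current annotation lists it as a pseudogene.

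786-O is an established human line from a clear cell renal carcinoma, and it lacks functional VHL. The knockout group (3 libraries) received sgRNA against PHF8 by CRISPR-Cas9, and the control group (3 libraries) received control sgRNA by the same method. Both groups share the line, Cas9 delivery and RPMI-1640 medium with fetal bovine serum. PHF8 is a JmjC-domain histone demethylase that removes repressive methyl marks. The labels state neither whether the edited cells were a pool or a clone, nor whether the libraries of each group stem from different cultures or share an sgRNA. A p-value here thus reflects only how these libraries vary, and that variation could be technical.

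MAGE proteins share a MAGE homology domain, through which many of them bind a RING-type E3 ubiquitin ligase and steer its activity or its choice of substrate. The A, B and C genes lie on chromosome X, are expressed mainly in male germ cells, and are kept silent in most other tissues, with promoter DNA methylation as a well-known layer of that silencing. Their reappearance in tumours made them the founding cancer-testis antigens. The remaining genes are expressed in many tissues. They include the imprinted genes NDN and MAGEL2 of the Prader-Willi region and NSMCE3, a subunit of the SMC5/6 genome-maintenance complex.

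PHF8 had 259, 167 and 348 reads in knockout libraries 1, 2 and 3, against 833, 876 and 881 in control libraries 1, 2 and 3. The knockout libraries kept 31.0%, 19.3% and 36.7% of the control mean (log2 fold change -1.78, SE 0.21, adjusted p = 1.19e-04). Knockout library 3 kept the largest share. Over all genes it was knockout library 2 that stood apart: counts of libraries 1 and 2 and of libraries 2 and 3 differed with a chi-square per degree of freedom of 74.3 and 57.8, against 11.1 between libraries 1 and 3. Total counts per library ran between 25632275 and 29095133 in knockout cells and between 21533615 and 25055762 in control cells. Levels are given as CPM, the read count scaled to library size with TMM factors, and tests are edgeR's quasi-likelihood test with Benjamini-Hochberg adjustment over all 14398 genes that passed the count filter. A gene is called at an adjusted p under 0.05. By that rule 59.7% of tested genes were called, 28.9% higher and 30.8% lower in knockout cells, and groups did not overlap in 66.8%. Of the 10 markers listed for 786-O cells, 9 were tested, with PAX8 (log2 0.70), CD70 (0.38, but -0.29 with trends of transcript length and GC content removed) and KRT18 (0.33, but -0.22) higher and PAX2 (-1.08) lower. Their summed level, most of it VIM, was 7372 to 8788 CPM in knockout cells and 6856 to 6937 CPM in control cells. CA9, a defining marker of clear cell tumours, had at most 19 reads in any library. All 10 germ-cell markers went untested, 7 of them had 0 reads in every library, and the highest count among them was 3 reads. Markers of other cell types were mixed. The 7 fibroblast markers summed to 1.41 to 2.29 CPM in knockout cells and 4.60 to 5.08 CPM in control cells, with 2 of 4 tested lower and COL3A1 at 0 reads in every library. The 6 immune markers, nearly all CD68, summed to 112 to 122 CPM in knockout cells and 43.8 to 48.0 CPM in control cells, with PTPRC, CD3E and LYZ at 0 reads. Of 3 tested endothelial markers KDR (1.04) and TEK (1.06) were higher, and CDH5 had 0 reads. Of 2 tested neuronal markers SYT1 (-3.39) was lower and SNAP25 (0.31), the most abundant, was not called, and STMN2 had 0 reads. SYT1 and the lower fibroblast markers, LUM and PDGFRB, passed the filter through the control libraries alone, so low knockout levels are partly built into their selection. The part of these markers in the results was not tested.

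Most restricted members were not detected in either group. Of the 27, 15 had 0 reads in all 6 libraries. Over the 150998035 counted reads this allows a level of up to 0.0199 CPM (3 reads, counting error only). That limit holds only if the reads of a gene were counted to its symbol. MAGEA10, MAGEA5 and the readthrough symbol MAGEA10-MAGEA5 that joins them were all among the 15. How reads shared by such symbols were treated is not stated in the sources used here. Another 7 (MAGEA1, MAGEA2, MAGEA11, MAGEB6, MAGEB17, MAGEC1 and MAGEC3) never exceeded 6 reads in a library. Only 5 passed the filter: MAGEA3, MAGEA6, MAGEA12, MAGEC2 and MAGEB2. The first 4 of these passed through the control libraries alone, so a low knockout level is partly built into their selection, and their number is given as a description. MAGEB2 passed through the knockout libraries alone. In the fit, 4 were lower in knockout cells, 0 were higher and 1 was not called, against the 30.8% lower and 28.9% higher among all tested genes.

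MAGEA3 and MAGEA6 are near-identical copies, and the sequences show what separates their counts. Their transcripts, 1762 bases each, were 98.58% identical, with 25 differing bases, 18 of them in the coding sequence, and identical runs of up to 409 bases. A read that falls within such a run cannot be assigned to 1 of the 2 copies by sequence. The coding stretch between transcript positions 831 and 890 holds 4 of the differences, shown in capitals (GENCODE v44 transcripts on GRCh38, 5′ to 3′).
MAGEA3: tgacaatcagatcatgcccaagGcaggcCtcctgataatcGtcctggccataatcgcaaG
MAGEA6: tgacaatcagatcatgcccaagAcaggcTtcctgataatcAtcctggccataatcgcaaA
The same holds more strongly for MAGEA2 and MAGEA2B (100% identical), MAGEA9 and MAGEA9B (99.89%) and MAGED4 and MAGED4B (100%), all of them at or near 0 reads here. For these copies a count at or near 0 also depends on how shared reads were treated, which the sources used here do not state.

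The promoters of the restricted genes that were called are printed because CG dinucleotides are the sites where promoter DNA methylation acts. These genes were all called lower, but, as said above, they passed the filter through the control libraries alone. Their shared direction is thus partly built into their selection. Each printed promoter is the RefSeq window (GRCh38.p14) from 250 bases before to 50 after the annotated start. It is read 5′ to 3′ on the gene's strand, with CG in capitals. The MAGEA3 window (chrX:152698544-152698843, plus strand) holds 19 CG and is identical to that of MAGEA6 (chrX:152769640-152769939, minus strand) over all 300 bases. The MAGEA12 window (chrX:152733507-152733806, plus strand, the first of 2 annotated) holds 9, and the MAGEC2 window (chrX:142205241-142205540, minus strand) holds 10. NDN, a broad member whose counts per library resemble those of MAGEA3, is shown for contrast (chr15:23687256-23687555, minus strand) and holds 35.
MAGEA3 and MAGEA6: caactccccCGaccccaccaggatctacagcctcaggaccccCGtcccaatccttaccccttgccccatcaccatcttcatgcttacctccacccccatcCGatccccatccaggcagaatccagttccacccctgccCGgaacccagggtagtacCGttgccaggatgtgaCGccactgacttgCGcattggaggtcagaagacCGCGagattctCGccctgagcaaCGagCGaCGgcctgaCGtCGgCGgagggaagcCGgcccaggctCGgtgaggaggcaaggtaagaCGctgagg
MAGEA12: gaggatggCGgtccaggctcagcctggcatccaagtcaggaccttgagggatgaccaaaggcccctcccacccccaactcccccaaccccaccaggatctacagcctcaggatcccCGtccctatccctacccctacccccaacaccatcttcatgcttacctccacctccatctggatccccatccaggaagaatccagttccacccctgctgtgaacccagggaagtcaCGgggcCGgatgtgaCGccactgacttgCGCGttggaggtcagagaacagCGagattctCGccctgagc
MAGEC2: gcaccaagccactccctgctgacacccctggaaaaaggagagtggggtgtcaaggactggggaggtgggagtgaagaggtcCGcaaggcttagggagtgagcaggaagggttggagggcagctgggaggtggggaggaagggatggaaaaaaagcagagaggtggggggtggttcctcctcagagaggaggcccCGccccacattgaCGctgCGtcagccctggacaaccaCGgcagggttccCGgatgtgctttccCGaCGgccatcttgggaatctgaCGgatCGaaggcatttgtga
NDN: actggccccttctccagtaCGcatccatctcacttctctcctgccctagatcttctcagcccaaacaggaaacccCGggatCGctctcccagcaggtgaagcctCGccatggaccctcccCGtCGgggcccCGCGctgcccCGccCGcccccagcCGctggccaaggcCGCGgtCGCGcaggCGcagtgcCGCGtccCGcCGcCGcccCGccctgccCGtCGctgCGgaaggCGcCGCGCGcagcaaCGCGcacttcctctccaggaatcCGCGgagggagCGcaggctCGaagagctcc
Over all 35116 RefSeq windows of this length the median was 14 CG, with quartiles at 4 and 28. The restricted genes that were called thus lie within the middle range and NDN above it. Searched on both strands, the ETS-type motif CCGGAAG was in 5 of the 43 windows of family members and in 10.26% of all windows. GGGCGG, the core of a GC box, was in 24 of 43 and in 44.95% of all, and TATAAA was in 1 of 43 and in 11.53% of all. A match is only a match of letters.

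MAGEA3 (chromosome X, 152698767 to 152702347) encodes a protein that binds the ligase TRIM28 and, in cancer cells, directs it to AMPK. It had 4, 3 and 202 reads in knockout libraries 1, 2 and 3, against 319, 371 and 379 in control libraries 1, 2 and 3. Knockout libraries 1 and 2 were nearly empty of it, whereas library 3 kept 51.8% of the control mean, and no knockout library reached the lowest control library. The level was 2.57 ± 4.20 CPM in knockout cells and 14.3 ± 0.453 CPM in control cells (SD, n = 3 each), with a log2 fold change of -2.48 (SE 0.94, adjusted p = 0.0452). This call is fragile. It was kept under 11 alternatives and lost under 7, among them DESeq2 (adjusted p = 0.192), robust dispersions (0.0890) and removal of knockout library 1 (0.0884) or control library 1, 2 or 3 (0.0950, 0.0719 and 0.0858), and over all alternatives the adjusted p ran between 2.86e-10 and 0.302. Without knockout library 3 the log2 fold change was -6.59 (adjusted p = 5.77e-06). In bulk RNA, fewer cells that express a gene and less RNA per cell cannot be told apart.

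MAGEA6 (chromosome X, 152766136 to 152769716), the near-copy of MAGEA3 and likewise a TRIM28 partner, had 6, 9 and 55 reads in the knockout libraries, against 155, 140 and 167 in the control libraries. Its pattern was that of MAGEA3, with shares of 4.02%, 5.84% and 32.5% of the control mean in knockout libraries 1, 2 and 3. It fell by 2.80 on the log2 scale (SE 0.55, adjusted p = 0.00188), and by 4.31 without knockout library 3. With the counts of both copies added, which removes the question of how reads were split between them, the log2 fold change was -2.57 (adjusted p = 0.0254).

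MAGEA12 (chromosome X, 152733757 to 152737669), between MAGEA3 and MAGEA6, had 0, 0 and 4 reads in the knockout libraries, against 18, 27 and 32 in the control libraries. The only knockout reads came from library 3, at 14.4% of the control mean. The log2 fold change was -4.17 (SE 0.68, adjusted p = 7.08e-04). In knockout libraries 1 and 2 together it was at least 18.8-fold lower than in control cells, by a floor of 3 reads over both. This takes the control reads as counted, without their counting error.

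MAGEC2 (chromosome X, 142202342 to 142205290) is another TRIM28-binding member and lies outside the A cluster. It had 11, 10 and 7 reads in the knockout libraries, against 51, 66 and 61 in the control libraries. Here library 3 was the lowest of the knockout libraries, at 10.8% of the control mean beside 19.2% and 16.9% in libraries 1 and 2, and the groups did not overlap. MAGEC2 fell by 2.68 on the log2 scale (SE 0.28, adjusted p = 6.64e-05), and this call was kept under every alternative run.

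MAGEB2 (chromosome X, 30215563 to 30220089) had 11, 12 and 18 reads in the knockout libraries, against 1, 7 and 12 in the control libraries. By CPM the groups did not overlap, but the highest control library, at 0.448 CPM, lay just below the lowest knockout library, at 0.458 CPM. The log2 fold change of 1.01 had a 95% interval from -0.06 to 2.07 and did not pass (adjusted p = 0.137). Among the untested members, MAGEA11, known as a coregulator of the androgen receptor, had 0 reads in each knockout library, against 2, 2 and 6 in the control libraries. A floor of 3 reads over the knockout group would be 3.82-fold lower than the control reads as counted. The counting error of so few control reads is not included, so this is not a firm lower limit.

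**Figure D1:**
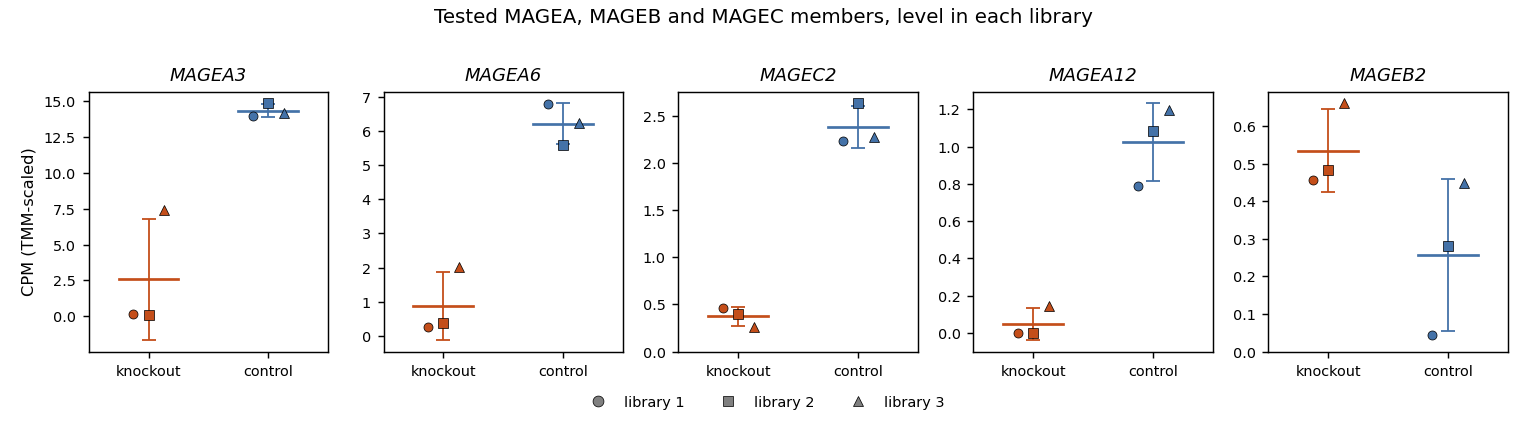
Level in CPM of each tested restricted MAGE gene in each library, knockout left of control, with points for libraries and bars for mean and SD. MAGEA3, MAGEA6 and MAGEA12 have knockout library 3 above libraries 1 and 2, while MAGEC2 has all 3 knockout libraries low and MAGEB2 has nearly touching groups.

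Added up, the restricted members stood at 1.50, 1.65 and 10.8 CPM in knockout libraries 1, 2 and 3, against 24.4, 24.9 and 24.8 CPM in the control libraries. They made up 0.143%, 0.169% and 1.11% of the family's reads in the knockout libraries, against 5.63% to 6.22% in the control libraries. The family total was dominated by MAGED1 and MAGED2 in both groups, which held on average 93.8% of it in knockout cells and 83.9% in control cells.

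The difference of knockout library 3 from libraries 1 and 2 was looked for beyond the family, with limits set after the member values were seen. Over all genes, as given above, library 2 was the one that stood apart. Of 11683 tested genes with at least 2 CPM in control cells, 61 were under 10% of the control mean in both libraries 1 and 2. Of those, 17 were over 25% in library 3, including MAGEA3, MAGEA6 and NDN, 22 were between 10% and 25%, and 22 were under 10% there too. The reverse arrangements were rarer: 23 genes were under 10% in libraries 1 and 3, of which 1 was over 25% in library 2, and 25 were under 10% in libraries 2 and 3, of which 0 were over 25% in library 1. PHF8 itself was highest in library 3 among the knockout libraries. Its part in these values was not tested.

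**Figure D2:**
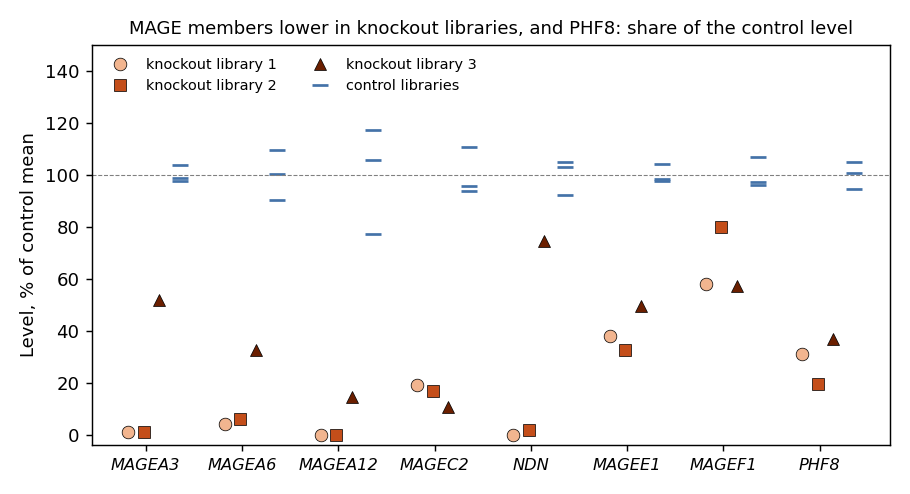
Share of the control mean, in percent, kept in each knockout library by 7 MAGE genes and by PHF8, with the control libraries as dashes around 100%. Knockout library 3 stands apart for MAGEA3 (51.8%), MAGEA6 (32.5%) and NDN (74.5%), and not for MAGEC2 (10.8%).

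Among the 11 broad members, MAGEE2 and MAGEL2 had 0 reads in every library and MAGED4 and MAGED4B at most 2. The other 7 were tested, 6 of them passing the filter in both groups and NDN through the control libraries alone. Of the 7, 3 were higher in knockout cells (MAGED1, MAGED2 and MAGEH1), 2 were lower (MAGEE1 and MAGEF1) and 2 were not called (NDN and NSMCE3). Over the whole family 12 members were tested and 9 called, and the groups did not overlap in 11 of the 12, beside 59.7% called and 66.8% not overlapping among all tested genes. Fitted without knockout library 2, again 9 of the 12 were called, 3 higher and 6 lower.

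MAGED1 (chromosome X, 51803007 to 51902354), also called NRAGE or Dlxin-1, binds the p75 neurotrophin receptor and the ligase PJA1. It had 15204, 13625 and 15784 reads in the knockout libraries, against 5265, 5631 and 5568 in the control libraries. Scaled, these were 633, 550 and 580 CPM in the knockout libraries, against 231, 225 and 208 CPM in the control libraries, without overlap. That is 2.65-fold higher (log2 1.41, SE 0.09, adjusted p = 1.15e-05).

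MAGED2 (chromosome X, 54807599 to 54816015) is needed in the fetal kidney for the salt transporters NKCC2 and NCC, and its loss causes a transient antenatal Bartter syndrome. It had 8903, 8786 and 8992 reads in the knockout libraries, against 3044, 3077 and 3336 in the control libraries. The knockout libraries were close to each other, at 371, 355 and 331 CPM, and all stood above the control libraries at 134, 123 and 125 CPM. MAGED2 was 2.77-fold higher (log2 1.47, SE 0.09, adjusted p = 8.13e-06), or 0.97 on the log2 scale once trends of fold change with transcript length and GC content were removed. The transporters themselves were near absent, with 0 reads of SLC12A1 (NKCC2) in any library and at most 2 of SLC12A3 (NCC).

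MAGEH1 (chromosome X, 55452127 to 55453566), a small member that binds the p75 neurotrophin receptor, had 616, 1159 and 931 reads in the knockout libraries, against 126, 125 and 115 in the control libraries. Library 2 was the highest and library 1 the lowest of the knockout libraries, and both stood far above every control library. The level was 35.5 ± 10.6 CPM in knockout cells and 4.94 ± 0.618 CPM in control cells (SD, n = 3 each). This was the largest fold change among the higher members, 7.20-fold (log2 2.85, SE 0.23, adjusted p = 2.38e-05).

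MAGEE1 (chromosome X, 76427710 to 76431342), whose protein binds alpha-dystrobrevin, had 85, 75 and 125 reads in the knockout libraries, against 207, 228 and 259 in the control libraries. All 3 knockout libraries were below the lowest control library. It was 2.49-fold lower (log2 -1.32, SE 0.18, adjusted p = 2.62e-04).

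MAGEF1 (chromosome 3, 184710364 to 184712064), which works with the ligase NSMCE1 on the iron-sulfur assembly protein MMS19, had 341, 485 and 381 reads in the knockout libraries, against 597, 588 and 638 in the control libraries. Knockout library 2 was the highest of its group at 19.6 CPM, and the lowest control library was at 23.5 CPM. MAGEF1 was 1.54-fold lower (log2 -0.62, SE 0.15, adjusted p = 0.00638), and fell by 1.19 on the log2 scale with length and GC trends removed.

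NDN (chromosome 15, 23685400 to 23687305) encodes necdin, which is expressed from the paternal allele only, binds E2F1, and restrains growth in neurons. It had 0, 1 and 51 reads in the knockout libraries, against 59, 66 and 62 in the control libraries. Knockout libraries 1 and 2 held almost none, and library 3, at 1.87 CPM, came close to the lowest control library at 2.32 CPM. Over all libraries the log2 fold change of -1.96 (SE 0.89) did not pass (adjusted p = 0.0830). The interval of 1.96 SE drawn for it in the plot of fold changes excludes 0, although the unadjusted p of the quasi-likelihood test was 0.0538. The factor 1.96 is a normal quantile and makes no allowance for the small number of libraries, so the interval is too narrow. The call depends on library 3: without it the log2 fold change was -6.62 (adjusted p = 9.88e-05). Libraries 1 and 2 together held 0.730% of the control level (exact 95% interval 0.0184% to 4.12%, counting error only). The neighbour MAGEL2, also paternally expressed, was at 0 reads throughout.

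NSMCE3 (chromosome 15, 29264989 to 29269822), the MAGE subunit of the SMC5/6 complex and partner of the ligase NSMCE1, had 11, 19 and 19 reads in the knockout libraries, against 10, 24 and 14 in the control libraries. The groups overlapped. The log2 fold change was 0.00 with a 95% interval from -0.71 to 0.71, so a change of up to that size in either direction is not excluded. A larger change could also go uncalled at this depth.

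**Figure D3:**
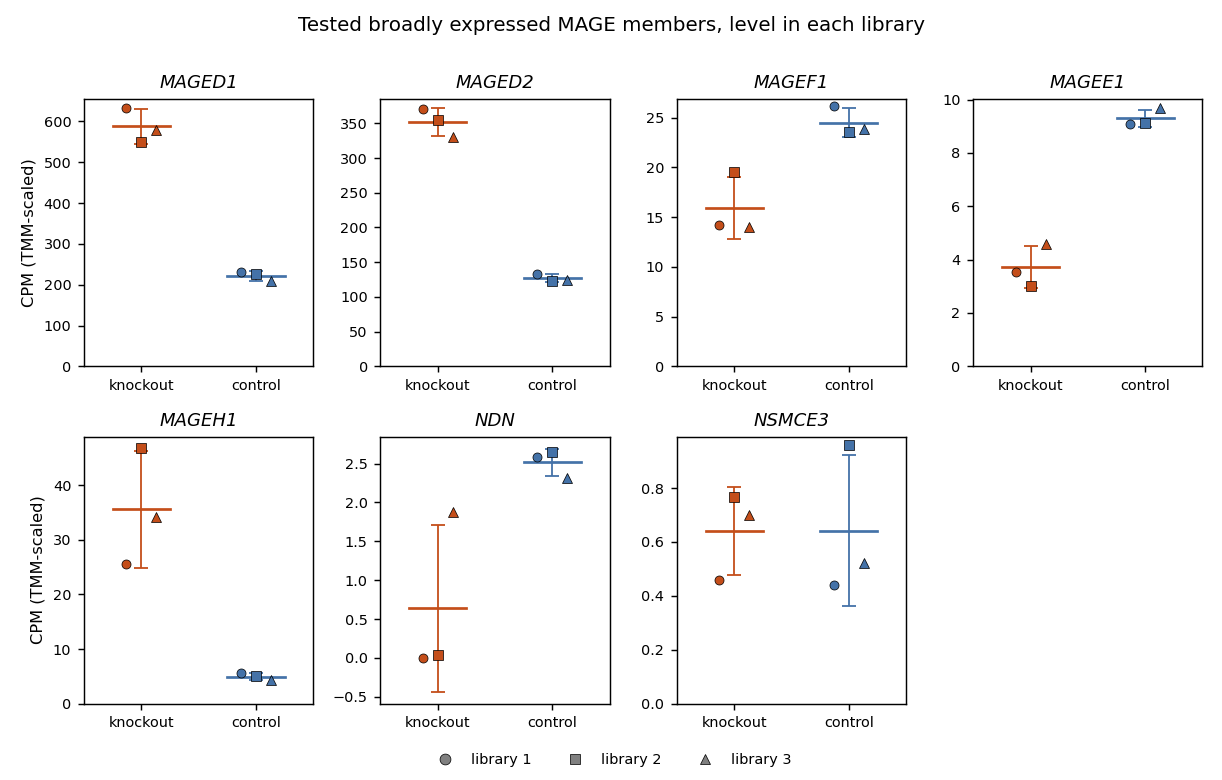
Level in CPM of each tested broad MAGE gene in each library, knockout left of control, with points for libraries and bars for mean and SD. MAGED1, MAGED2 and MAGEH1 are higher in all 3 knockout libraries, MAGEE1 and MAGEF1 lower in all 3, and NDN has 1 knockout library near the control level.

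**Figure D4:**
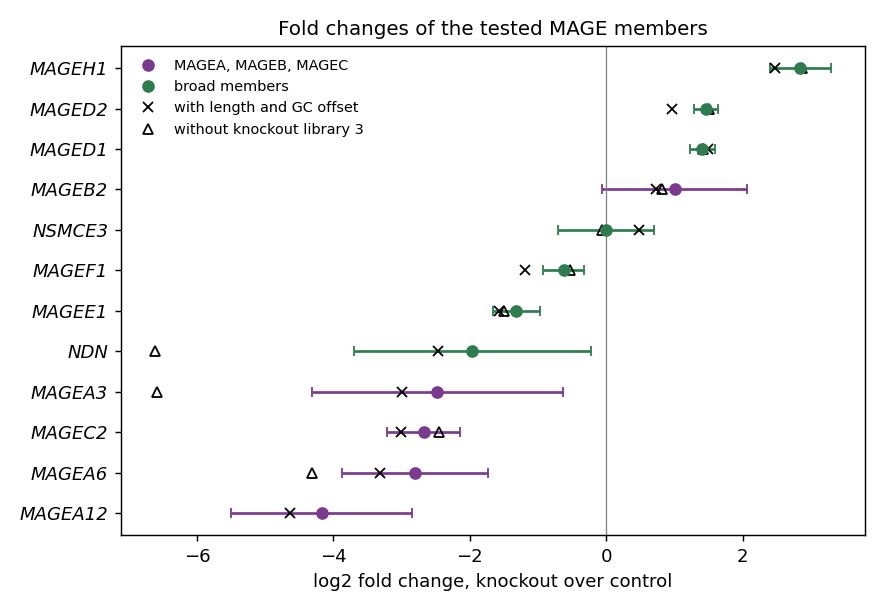
Log2 fold change of knockout over control for the 12 tested MAGE genes with a 95% interval (1.96 SE), beside the value with length and GC trends removed and the value without knockout library 3. Without library 3, MAGEA3 (-6.59), MAGEA6 (-4.31) and NDN (-6.62) lie further below 0, and no such value is drawn for MAGEA12, which then has 0 knockout reads.

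TRO, which RefSeq also lists as MAGED3, carries a MAGE homology domain but is not a member by its symbol, and it was singled out after its values were seen. It lies downstream of MAGED2 on the same strand, and had 63, 76 and 102 reads in the knockout libraries, against 219, 252 and 261 in the control libraries. Unlike its neighbour MAGED2 it was lower in knockout cells (log2 -1.64, SE 0.17, adjusted p = 6.55e-05).

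Levels of different members were compared per kilobase of exon. In knockout cells the order was MAGED2 (120 CPM per kilobase), MAGED1 (97.7), MAGEH1 (24.7), MAGEF1 (9.36), MAGEA3 (1.45), MAGEE1 (1.02), MAGEA6 (0.479), NDN (0.335), MAGEB2 (0.333), MAGEC2 (0.187), NSMCE3 (0.133) and MAGEA12 (0.0249). In control cells it was MAGED2 (43.2), MAGED1 (36.8), MAGEF1 (14.4), MAGEA3 (8.09), MAGEH1 (3.43), MAGEA6 (3.39), MAGEE1 (2.56), NDN (1.32), MAGEC2 (1.20), MAGEA12 (0.520), MAGEB2 (0.160) and NSMCE3 (0.133). In control cells the libraries of MAGEH1 and MAGEA6, of NDN and MAGEC2, and of MAGEB2 and NSMCE3 overlapped, so these neighbours in the order do not differ beyond their spread. In knockout cells the libraries of MAGEA3 and MAGEE1, of MAGEE1 and MAGEA6, of MAGEA6 and NDN, of NDN and MAGEB2, and of MAGEC2 and NSMCE3 overlapped, so most of the order below MAGEF1 is not resolved there. The places of MAGEA3 and NDN among them come from library 3: per kilobase MAGEA3 ran from 0.0683 to 4.19 CPM and NDN from 0 to 0.983 CPM over the knockout libraries, against 0.833 to 1.26 CPM for MAGEE1. MAGEA3 thus stood above MAGEH1 and MAGEE1 in control cells, and below MAGEH1 in knockout cells.

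The 3 members called higher all lie near PHF8 itself. The window of 2.5 megabases on either side of PHF8 (chromosome X, 51436676 to 56548958) holds 5 members, of which MAGED1, MAGED2 and MAGEH1 were tested. Relative to PHF8 they lie at -2.13, 0.87 and 1.52 megabases. Among the 21 other tested genes in that window, 4 were higher, 7 lower and 10 not called, with a median log2 fold change of -0.19. Over chromosome X outside the family, 113 of 454 tested genes were higher (24.9%) and 150 lower (33.0%). The 6 tested members elsewhere on chromosome X were not called higher, but 4 of them passed the filter through the control libraries alone. Around the A cluster, of 67 tested non-members within 2.5 megabases, 31 were higher and 10 lower, with a median of 0.28. The 3 tested A members were all lower, but they passed the filter through the control libraries alone. Their direction is thus partly built into their selection and is not a fair contrast with the neighbours. CSAG1, itself a cancer-testis antigen (chromosome X, 152727484 to 152733735, minus strand), lies head to head with MAGEA12 on the opposite strand, so that the MAGEA12 window printed above spans both starts. It had 0, 0 and 4 reads in the knockout libraries, against 18, 32 and 22 in the control libraries (log2 -4.08, adjusted p = 9.73e-04), and its only knockout reads, like those of MAGEA12, came from library 3. CSAG1 passed the filter through the control libraries alone, so a low knockout level is partly built into its selection. CETN2, on the other side of MAGEA6 (chromosome X, 152826994 to 152830757), was not called (log2 0.01, adjusted p = 0.963).

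**Figure D5:**
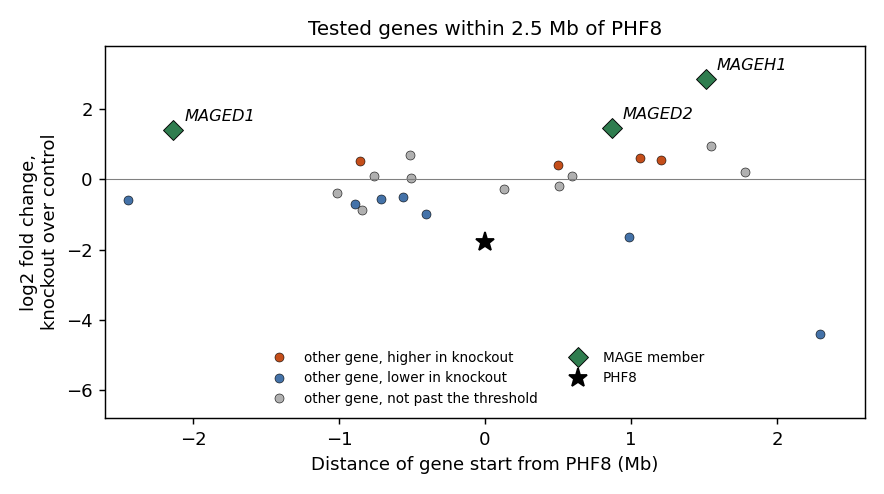
Log2 fold change of knockout over control for tested genes within 2.5 megabases of PHF8, by distance from PHF8 in megabases. The 3 tested MAGE genes lie above 1 on the log2 scale, while the other genes spread on both sides of 0 with a median of -0.19.

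Of 41 listed partner genes of MAGE proteins, 30 were tested, with 9 higher and 12 lower in knockout cells and a median log2 fold change of -0.13, beside -0.01 over all tested genes. That is 21 of 30 called, beside 59.7% (28.9% higher, 30.8% lower) of all tested genes. Beside the same 59.7%, 5 of 9 tested ubiquitin ligase and deubiquitinase partners were called, 5 higher and 0 lower. They were TRIM28 (0.58), the partner of MAGEA3 and MAGEC2, RNF113A (0.82), PJA1 (0.46), DDB1 (0.73) and STUB1 (0.29), as log2 fold changes. STUB1 turned to -0.40 with length and GC trends removed. TRIM28 (0.16), RNF113A (0.24) and PJA1 (0.14) then kept their sign but no longer passed.

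In the SMC5/6 complex, into which NSMCE3 assembles, 7 genes were tested, with 1 higher and 4 lower. Among all tested genes 59.7% were called, 28.9% higher and 30.8% lower. The ligase NSMCE1 was higher (log2 0.97), whereas SLF1 (-1.32), SLF2 (-1.12), SMC5 (-1.17) and SMC6 (-0.83) were lower. With length and GC trends removed, SMC5 (-0.31) and SMC6 (-0.10) no longer passed, and SLF1 (-0.51), SLF2 (-0.26) and NSMCE1 (0.43) passed with smaller values. Of the endosomal WASH and retromer genes, on which MAGEL2 acts, 5 of 8 tested were lower and 0 higher. That is 5 of 8 called, beside the 59.7% of all tested genes. The 5 were WASHC4, listed as KIAA1033 (-1.57), WASHC5, listed as KIAA0196 (-0.86), VPS26A (-0.76), VPS35 (-0.73) and WASHC2A, listed as FAM21A (-0.29). VPS35, the core of retromer, went to 0.025 with length and GC trends removed, and WASHC4 (-0.71), WASHC5 (-0.53) and VPS26A (-0.24) passed with smaller values.

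Among receptors, adaptors and targets, 6 were tested, 3 higher and 3 lower, beside 28.9% higher and 30.8% lower among all tested genes. NGFR, the p75 receptor bound by MAGED1 and MAGEH1, was higher (log2 1.04), as were GNAS (0.46), whose Gs-alpha product binds MAGED2, and E2F1 (0.35, but -0.16 with length and GC trends removed). PRKAA1, the AMPK subunit targeted through MAGEA3 and TRIM28, was lower (-0.87), as was BMI1 (-1.64). NGFR was at 1.32 CPM in knockout cells and 0.648 CPM in control cells. With length and GC trends removed, PRKAA1 (-0.15) and NGFR (0.64) no longer passed, and GNAS stood at 1.25. In the Prader-Willi region beside NDN, 2 of 6 listed genes were tested: UBE3A was lower (-0.75, but 0.31 with length and GC trends removed) and ATP10A higher (0.48). The share called among all tested genes was 59.7%.

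Other cancer-testis antigens did not move in 1 direction. Of 74 genes found from the X-linked list, which also holds VCY of chromosome Y, 48 had 0 reads in every library and 6 were tested. SPANXN1 (log2 1.85), SPANXA2 (1.52), SPANXA1 (1.13) and SPANXD (0.88) were higher, and CSAG1 (-4.08) and SPANXB1 (-2.33) were lower. As said above, CSAG1 passed the filter through the control libraries alone. SPANXD (0.39) no longer passed with length and GC trends removed. SPANXA1, SPANXA2, SPANXB1 and SPANXD are close copies of each other, so their separate counts are uncertain. Identity among the SPANX genes was not measured here. The autosomal list also holds PLAC1 of chromosome X. Of its 23 tested genes, 13 were lower and 0 higher, beside 59.7% called, 28.9% higher and 30.8% lower, among all tested genes. The 8 with the smallest p were IGF2BP3 (-1.99), CEP55 (-1.31), KDM5B (-1.49), PBK (-1.32), NUF2 (-1.49), ATAD2 (-1.60), CABYR (-1.70) and TTK (-1.78). With length and GC trends removed, ATAD2 (-0.89) and KDM5B (-0.75) passed with smaller values. Several of these, such as TTK, NUF2 and CEP55, serve cell division in many tissues and are not confined to the germ line. PRAME, a widely used tumour antigen, had a log2 fold change of 0.13 and did not pass (adjusted p = 0.661).

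Of 25 listed genes that silence or demethylate germ-line promoters, 23 were tested, with 5 higher and 10 lower and a median of -0.16, beside 59.7% called (28.9% higher, 30.8% lower) among all tested genes. L3MBTL2, of the germline-repressing PRC1.6 complex, was higher (log2 1.24), as was TRIM28. ATF7IP (-1.41), TASOR of the HUSH complex, listed as FAM208A (-1.40), SIN3A (-1.54), CBX3 (-0.86) and the DNA demethylases TET1 (-2.05) and TET2 (-1.49) were lower. All 8 of these except TRIM28 still passed with length and GC trends removed, though ATF7IP (-0.44), FAM208A (-0.40), TET1 (-1.12) and TET2 (-0.61) were then smaller. TET1 passed the filter through the control libraries alone, so its low knockout level is partly built into its selection. DNMT1, which maintains DNA methylation, had a log2 fold change of -0.14 and was not called (adjusted p = 0.487), while its partner UHRF1 (-0.43) and the de novo enzyme DNMT3A (-1.16) were lower and DNMT3B (0.68) was higher. The other listed PRC1.6 genes did not follow L3MBTL2: MGA was lower (log2 -1.22, adjusted p = 0.00531), and PCGF6 (0.05), E2F6 (0.17) and MAX (0.10) were not called. Over all settings MGA ran from -1.45 to -0.19, with an adjusted p of up to 0.490. DNA methylation and chromatin marks were not analysed here.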

How the data were processed

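Per the series design text and the labels, RNA extracted with Trizol was made into Illumina libraries, and reads were mapped to GRCh38 with HISAT2 (version 2.0.4, per the submitters' processing notes) and counted per gene with HTSeq. The deposited values are raw counts per gene symbol made by the authors, with no normalization. The sources used here do not state the strand setting, the annotation release or how reads shared by copies or by overlapping symbols were treated.

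From these counts, edgeR 4.0.16 (R 4.3.3, limma 3.58.1) compared 3 knockout with 3 control libraries of 21533615 to 29095133 reads. It used TMM factors, filterByExpr (minimum count 10), quasi-likelihood tests with group as the only term, a prior count of 0.125 for fold changes, and Benjamini-Hochberg adjustment over 14398 genes. SE is the log2 fold change over the root of F, and intervals are 1.96 SE. Such intervals make no allowance for the small number of libraries and are narrower than the test implies. Exon lengths and positions are from GENCODE v44, and promoters from RefSeq. Alignments used Biopython 1.88.

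The members and gene lists were chosen with earlier results of these data known. The text names every member, and from each list the called genes, up to 8 by smallest p. Genes named beyond that were chosen after their values were seen. The values of 2 listed genes are not reported here. Alternatives were DESeq2 1.42.0, limma-voom, other scaling and filters, robust dispersions, a replicate block, leaving out each library, a length and GC offset (lowess span 0.3), a test against 2-fold and, added after seeing the data, summed MAGEA3 and MAGEA6. Analysis code was tested on simulated data.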

Additional observations from a re-analysis of the deposited data

How the results depend on the processing

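No called MAGE member reversed under any alternative, and the uncalled NSMCE3 ran from -0.17 to 0.48. MAGEA3 lost its call under 7 alternatives and NDN gained one under 5, namely without knockout library 3, limma-voom (adjusted p = 0.00795), no filter (9.35e-06), the length and GC offset (0.0301) and the replicate block. MAGEE1 and MAGEF1 lost theirs only in the test against 2-fold. That test called 1354 genes in place of 8593, 3 broad members in place of 5, 9 other cancer-testis antigens in place of 19 and 0 partner genes in place of 21 (3 at an unadjusted p under 0.05 by the same edgeR test, and 20 by DESeq2 against no change). With the length and GC offset, 8 list or marker genes changed sign: CD70 (-0.29), E2F1 (-0.16), HDAC3 (-0.21), KRT18 (-0.22), SPAG9 (0.48), STUB1 (-0.40), UBE3A (0.31) and VPS35 (0.025), and partner calls numbered 14. Any true difference between the groups along length or GC is lost with the offset. By library totals alone the median of all genes was -0.18, with 3153 genes higher and 5441 lower in place of 4158 and 4435. Leaving out 1 library gave 7170 to 9542 calls. Samples with the same replicate number showed no shared shift (correlations 0.02, -0.04 and 0.01), and the labels do not state whether they were prepared as pairs. With the replicate block 8308 genes were called, NDN among them (adjusted p = 0.0232), and PHF8 stood at -1.83. Depth limits the 26 untested members, at most 6 reads per library, to statements on detection.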
